A study of Mus musculus with 12 samples.

Results

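Samples of CD4+ T cells from the inflamed central nervous system (CNS) differed in 594 of 18630 genes between groups of mice. The groups were actively immunised mice and mice given Th17 cells by transfer, and myeloid RNA was present in both. The comparison covers 6 of the 12 microarrays of the series, 3 for each way of inducing experimental autoimmune encephalomyelitis (EAE), a mouse model of multiple sclerosis. The arrays were chosen by their titles alone. The immunised group was taken from C57BL/6 mice that had received the MOG35-55 peptide of myelin oligodendrocyte glycoprotein (MOG). The transferred group held cells that began as naive CD4+ T cells of B6.2d2 mice, which carry a transgenic T cell receptor for MOG. Those cells had been turned into Th17 cells in culture, injected into Rag1-/- hosts and taken back from the CNS. Both groups were sampled when symptoms peaked. The other 6 arrays, 3 of naive B6.2d2 spleen CD4+ T cells and 3 of the cultured Th17 cells, serve here to estimate the spread and to show where a level lay before transfer. According to the series text each group's replicates stem from 3 separate experiments, and the labels do not say whether animals were pooled.

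In EAE, CD4+ T cells that recognise myelin enter the CNS and recruit monocytes, neutrophils and other cells to the lesions. Immunisation primes the animal's own CD4+ T cells, which carry many different receptors and include Foxp3+ regulatory T cells, in a host that also has B cells and CD8 T cells. A Rag1-/- host makes no T or B cells of its own, so its T cells derive from the injected cells. Injected cells can divide strongly in such a lymphopenic host. The transferred cells carry 1 receptor specificity and were shaped by the cytokines of the culture. Strain, receptor, host and way of induction therefore differ together between the groups, and their parts in any difference cannot be told apart.

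A level below is a log2 signal minus the 75th percentile of the non-control probes on the same array, so that 0 marks a probe at that percentile. A change is the mean level of immunised arrays minus that of transferred arrays, as fitted by limma over all 12 arrays. A gene was called where its Benjamini-Hochberg adjusted p, taken over all 18630 genes, was under 0.05. Of the probes on the 6 CNS arrays, 57.7% to 61.4% lay well above background, no spot was saturated, and the median signal was 45.7 to 65.8. Pearson correlations across genes were 0.982 to 0.991 within immunised arrays, 0.976 to 0.984 within transferred arrays and 0.949 to 0.974 between the groups. Genes are not independent replicates. Each of the 3 slides held 1 array of every group, at a position fixed by group, so group cannot be told apart from array position.

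T cell genes were strongly expressed on all 6 CNS arrays. Cd4, the coreceptor that defines these cells, had levels of 4.41, 4.72 and 4.11 on immunised arrays and 4.39, 4.29 and 3.94 on transferred arrays. Cd3e, a chain of the T cell receptor complex, had levels of 5.05, 5.47 and 4.88 on immunised arrays and 4.85, 4.99 and 4.43 on transferred arrays. The groups overlapped for both genes, and neither was called (limma adjusted p = 0.576 and 0.351). Myeloid transcripts were present as well. The summed signal of 24 macrophage and monocyte genes, on the log2 scale, was 9.60 to 10.64 on immunised arrays and 9.96 to 10.52 on transferred arrays, against 6.72 to 6.95 on arrays of cultured cells and 6.09 to 6.98 on those of naive cells. Immunised replicate 2 had the lowest level of its group for 23 of the 24, against 29.4% of all genes. The summed signal of 20 T cell core genes was 8.88 to 9.48 on immunised and 8.51 to 8.95 on transferred arrays. It was 9.43 to 9.66 on cultured and 9.49 to 9.73 on naive arrays. On every CNS array it lay below the macrophage and monocyte sum. Sums over different probes do not give cell proportions. Transferred replicate 3 had the lowest level of its group for 17 of 20 T cell core genes, against 38.5% of all genes. Y-linked transcripts were at background on immunised arrays and present on transferred arrays, and their values close the account. The purity of the isolated cells is not given in the labels, and in bulk RNA fewer cells of a type and less RNA per cell cannot be told apart.

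Of the 594 called genes, 339 were higher and 255 lower in immunised mice. Called genes made up 3.19% of those tested, 1.82% higher and 1.37% lower. The counts within gene lists below stand against these shares. The change was at least 2-fold for 477 of them, or 2.56% of genes tested, with 279 higher and 198 lower. It was at least 4-fold for 266, of which 180 were higher and 86 lower. In all 594 the immunised and transferred arrays did not overlap, which also held for 6284 genes overall (33.7%). Without overlap the 3 within-slide differences must have 1 sign, as they had for 50.2% of all genes. The median change over all genes tested was -0.05, and the quartiles were -0.35 and 0.26. Without immunised replicate 1, 192 genes were called, without immunised replicate 2, 221, and without transferred replicate 3, 271. Without immunised replicate 3 the count was 357 and without transferred replicate 2 it was 342. A fit to the 6 CNS arrays alone called 796, of which 423 were among the 594. With the slide, which is also the replicate number, as a block, limma called 548.

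**Figure D1:**
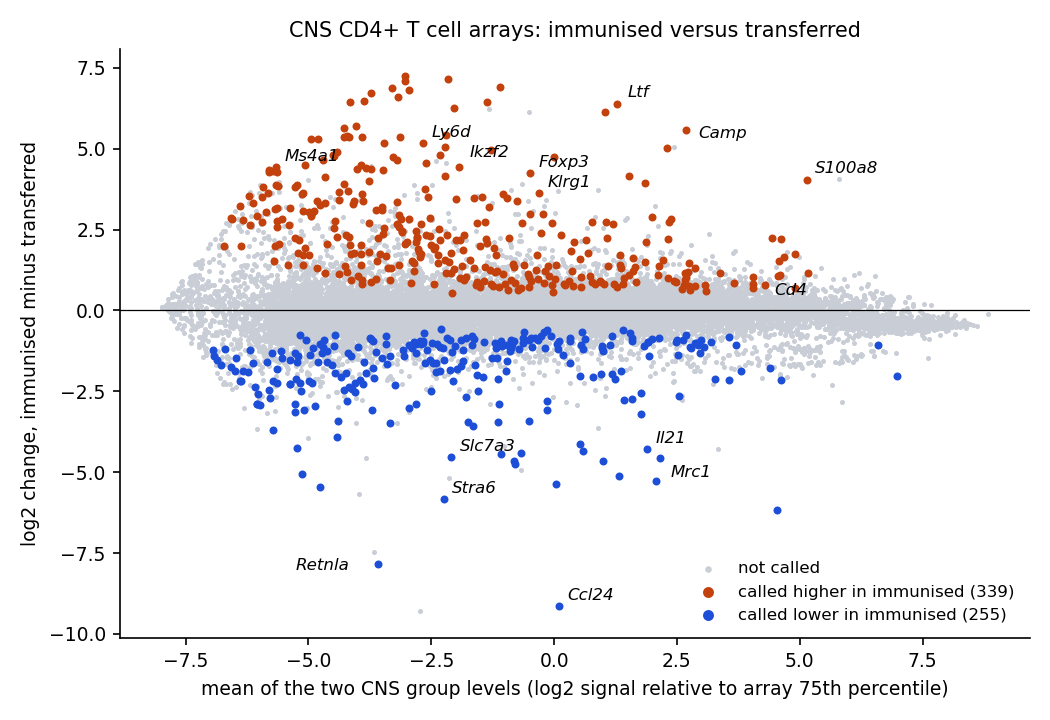
Each point is 1 of 18630 genes, with the mean of the 2 CNS group levels on the x axis and the log2 change, immunised minus transferred, on the y axis. The 339 genes called higher in immunised mice lie above the line at 0 and the 255 called lower lie below it, with Ltf, Camp and Foxp3 among the high points and Ccl24, Mrc1 and Il21 among the low ones.

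Transcripts of regulatory T cells, the lineage that restrains other T cells, were higher in immunised mice for a few genes and not across the list. Foxp3, the transcription factor that specifies the lineage (probe at chrX:7172301-7172360, mm9), had levels of 1.37, 2.08 and 1.45 on immunised arrays and -3.76, -2.57 and -1.52 on transferred arrays. The lowest immunised array exceeded the highest transferred array by well over the spread within the immunised group. Foxp3 was 4.25 ± 0.51 higher on the log2 scale (SE of the limma fit, adjusted p = 0.00198), and 5.12, 4.65 and 2.97 higher within the 3 slides. Its mean level was -1.15 in naive cells and -3.42 in cultured Th17 cells, so the transferred mean of -2.62 lay between those.

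Ikzf2, which encodes the transcription factor Helios, had levels of 0.12, 0.55 and 0.17 on immunised arrays and -6.47, -3.39 and -2.57 on transferred arrays, where 2 of 3 were well above background. Its mean level was -0.06 in naive cells, near the immunised mean of 0.28, and -6.33 in cultured Th17 cells. Its change was 4.42 ± 0.93 (limma adjusted p = 0.0336), with a limma adjusted p of 0.0591 when the 6 CNS arrays were fitted alone. Ikzf2 also lost its call with no filter on dim probes, and without any 1 immunised array or transferred replicate 2. Klrg1, a receptor of differentiated effector and regulatory T cells, was 3.62 ± 0.38 higher (limma adjusted p = 0.00105). Klrg1 levels were 0.65, 1.74 and 2.10 on immunised arrays and -2.0, -2.73 and -1.63 on transferred arrays. These 3 genes were the called members among 22 measured of 24 listed, where 1.82% of all genes tested were called higher. By limma 0 were called lower, with 2 lower at an unadjusted p under 0.05 and 0 in the fit of 6 arrays, and the list median change was 0.32. Genes that activated T cells share with regulatory cells behaved otherwise. Il2ra, which gives the interleukin-2 receptor its high affinity, averaged 3.17 ± 0.29 on immunised and 2.95 ± 0.29 on transferred arrays (SD, n = 3 each), and Ctla4, an inhibitory receptor, 2.60 ± 0.35 and 2.28 ± 0.27. Both overlapped between the groups (limma adjusted p = 0.704 and 0.590). Lrrc32, which holds latent TGF-beta at the surface of regulatory T cells, averaged 2.79 more on immunised arrays and was not called (limma adjusted p = 0.0922).

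Il21 showed the opposite direction. The gene encodes interleukin-21, a cytokine of Th17 and follicular helper T cells that acts on B cells and on T cells (probe at chr3:37121681-37121740, mm9). Its levels were -0.37, 0.19 and -0.56 on immunised arrays and 4.16, 4.05 and 3.88 on transferred arrays. All 3 transferred arrays lay within a narrow band far above every immunised array. Il21 was 4.28 lower on the log2 scale in immunised mice, with a change of -4.28 ± 0.48 (limma adjusted p = 0.00122) and within-slide changes of -4.53, -3.86 and -4.44. Cultured Th17 cells had a mean level of 4.01, close to the transferred mean of 4.03, and naive cells had -3.40.

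Other surface and secreted T cell molecules fell with Il21. Tnfsf8, the CD30 ligand, had levels of -0.14, 1.0 and -0.17 on immunised arrays and 3.1, 2.32 and 3.45 on transferred arrays, a change of -2.72 ± 0.37 (limma adjusted p = 0.00354). Cd200, a membrane ligand that restrains myeloid cells, changed by -2.02 ± 0.29 (limma adjusted p = 0.00481). Pdcd1lg2, a ligand of the PD-1 receptor that myeloid cells also make, changed by -2.11 (limma adjusted p = 0.00843). Tgfbr3, a coreceptor for TGF-beta, changed by -3.07 (limma adjusted p = 0.00305), and its mean was 1.69 in cultured and 1.61 in naive cells. As for every called gene, the arrays of the groups did not overlap for any of the 4, which also held for 33.7% of all genes. Among 16 follicular helper genes, Cd200 and Il21 were lower, Icos and Angptl2 were higher, and Bcl6, the transcription factor of that lineage, averaged 2.87 ± 0.25 on immunised and 2.58 ± 0.09 on transferred arrays (SD, n = 3 each; limma adjusted p = 0.634). The list median change was -0.20.

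The effector cytokines themselves were mostly not called. Il17a, the signature cytokine of Th17 cells, had levels of 2.87, 4.69 and 2.58 on immunised arrays and 1.82, 1.74 and 1.56 on transferred arrays (limma adjusted p = 0.276). Every immunised array exceeded every transferred array, but immunised replicate 2 stood well above the rest of its group. Il17f, its close relative, averaged -0.69 ± 0.89 on immunised and -1.94 ± 0.81 on transferred arrays (SD, n = 3 each), with overlap. Ifng, the Th1 cytokine, had levels of 4.91, 4.96 and 5.73 on immunised arrays and 4.71, 3.34 and 3.48 on transferred arrays. The Ifng groups did not overlap, and the change was 1.36 ± 1.61 over 12 arrays (limma adjusted p = 0.679). In the fit of 6 arrays its SE was 0.42 and its limma adjusted p 0.114. Csf2, which encodes GM-CSF, averaged 1.85 ± 0.19 on immunised and 1.37 ± 1.20 on transferred arrays (SD, n = 3 each; limma adjusted p = 0.740). Tnf and Il10 also overlapped between the groups.

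Il22, a Th17 cytokine that acts on epithelial cells, was the exception whose call turned on the fit and the scaling. Its levels were -0.42, 0.26 and -0.09 on immunised arrays and -4.71, -4.93 and -4.49 on transferred arrays, so the groups were far apart and each was tight. The change was 4.62 ± 1.14 with limma adjusted p = 0.0579 over 12 arrays, and limma adjusted p = 0.000821 for the 6 CNS arrays alone, where the spread among cultured and naive arrays does not enter. Median scaling, array weights or a trended robust prior, each over all 12 arrays, also gave a call. With the fit of 6 arrays, Il22 was called in 4 of 19 alternatives. Il22 had a mean level of 1.16 in cultured Th17 cells and -3.88 in naive cells. Among 15 measured Th17 genes of 16 listed, Rora was the member called higher and 0 were called lower (1 at an unadjusted p under 0.05, 0 in the fit of 6 arrays). Rora, a transcription factor of this lineage, rose by 1.72 ± 0.36 (limma adjusted p = 0.0313) and lost its call without any 1 of the 6 CNS arrays. The median of the Th17 list was 1.04.

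Th1 and cytotoxic genes had 3 of 21 members called higher and 0 called lower (1 at an unadjusted p under 0.05, 0 in the fit of 6 arrays), with a median of 0.86. The share of all genes called higher was 1.82%. Gzmk, a granzyme of memory T cells, had levels of 1.38, 1.46 and 1.10 on immunised arrays and -1.98, -0.51 and -1.70 on transferred arrays, a change of 2.71 ± 0.40 (limma adjusted p = 0.00584). Gzmb, the granzyme that triggers apoptosis in target cells, changed by 2.89 ± 0.64 (limma adjusted p = 0.0397) and had a limma adjusted p of 0.0581 in the fit of 6 arrays. Cxcr6, a receptor for the chemokine Cxcl16, rose by 1.74 (limma adjusted p = 0.0265) and lost its call without any 1 array. Tbx21, the Th1 master regulator, averaged 1.5 ± 0.13 on immunised and 1.29 ± 0.40 on transferred arrays (SD, n = 3 each; limma adjusted p = 0.896). Transferred replicate 3 was the lowest of its group for 16 of the 21 genes, against 38.5% of all genes, and the part of T cell content in these differences was not tested.

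Of the Th2 genes, limma called 0 of 7 measured of 9 listed, with 1 higher and 2 lower at an unadjusted p under 0.05, and 0 in the fit of 6 arrays. Those 2 were the type 2 cytokines. Il4 had levels of -2.69, -2.26 and -4.45 on immunised arrays and 2.29, -0.36 and 3.42 on transferred arrays (limma adjusted p = 0.204). Il13 had levels of -3.23, -3.54 and -2.56 on immunised arrays and 0.39, -0.95 and 3.80 on transferred arrays (limma adjusted p = 0.199). Both sets of arrays stood apart, with the widest spread on transferred arrays, and in the fit of 6 arrays limma adjusted p was 0.0571 for Il4 and 0.0912 for Il13. Gata3, the transcription factor of the Th2 lineage, averaged 2.87 ± 0.43 on immunised and 3.04 ± 0.91 on transferred arrays (SD, n = 3 each), with overlap.

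Several receptors for homing and tissue exit were higher in immunised mice. Of 31 measured chemokine receptor and adhesion genes of 33 listed, 6 were higher and 1 was lower, and the list median was 0.87. Over all genes tested, 1.82% were called higher and 1.37% lower. S1pr1, which guides T cells out of lymphoid tissue along sphingosine-1-phosphate, had levels of 2.29, 2.80 and 1.5 on immunised arrays and 1.06, -0.62 and -0.60 on transferred arrays. It rose by 2.25 ± 0.44 (limma adjusted p = 0.0229; 0.0722 in the fit of 6 arrays), and its relative S1pr4 by 1.94 (limma adjusted p = 0.00816). Ccr9, a receptor of gut homing and of thymocytes, rose by 2.16, Itgb7, an integrin chain of gut homing, by 1.16, and Selplg, the selectin ligand PSGL-1, by 0.79. Ccr7, which directs cells to lymph nodes, went the other way, with levels of 2.93, 4.34 and 3.35 on immunised arrays and 6.49, 5.49 and 5.05 on transferred arrays. Its change was -2.13 ± 0.41 (limma adjusted p = 0.0225), and dendritic cells also make it.

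Genes of naive and memory quiescence were split between the directions. Of 22 measured, 4 were higher (Dtx1, S1pr1, Ccr9 and Itga6) and 2 were lower (Bach2 and Ccr7), with a median of 0.73. Among all genes tested 1.82% were called higher and 1.37% lower. Dtx1, an E3 ligase of the Notch pathway, had levels of 0.82, 1.24 and 0.22 on immunised arrays and -2.73, -2.17 and -3.61 on transferred arrays, and rose by 3.60 ± 0.46 (limma adjusted p = 0.00249). Its mean was 4.23 in naive cells and -4.36 in cultured cells. Bach2, a repressor of effector differentiation, changed by -1.68 (limma adjusted p = 0.0177). In the fit of 6 arrays S1pr1, Ccr9, Itga6 and Ccr7 were not called (limma adjusted p = 0.0722, 0.0711, 0.0697 and 0.0651). Itga6, an integrin chain, rose by 0.67 and lost its call in 12 of 19 alternatives, including every omission of 1 array, and its other probe had a change of 0.19. Transferred replicate 3 was the lowest of its group for 16 of the 22, against 38.5% of all genes.

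Among 20 T cell core genes, Cd5 and Cd6 were called higher and 0 were lower (0 at an unadjusted p under 0.05 and in the fit of 6 arrays), with a median of 0.26. Cd5, a receptor that dampens T cell receptor signals, had levels of 5.47, 5.92 and 5.27 on immunised arrays and 3.33, 3.80 and 2.83 on transferred arrays. It rose by 2.24 ± 0.40 (limma adjusted p = 0.0154), and its relative Cd6 by 1.65 (limma adjusted p = 0.0392). Il1r2, a decoy receptor for interleukin-1 that T cells and neutrophils both make, rose by 2.74 (limma adjusted p = 0.0215). Of 9 probes for T cell receptor segments 2 were called higher, and 3 had a negative change. The probe named Trav14n-3 rose by 2.36 (limma adjusted p = 0.00223) and that named Tcrb-J by 2.19 (limma adjusted p = 0.00305). The naive means of -0.64 for Trav14n-3 and -1.54 for Tcrb-J compare with immunised means of -2.31 and -1.22. Segment families are near-identical in sequence, so which segment a probe reads is uncertain.

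**Figure D2:**
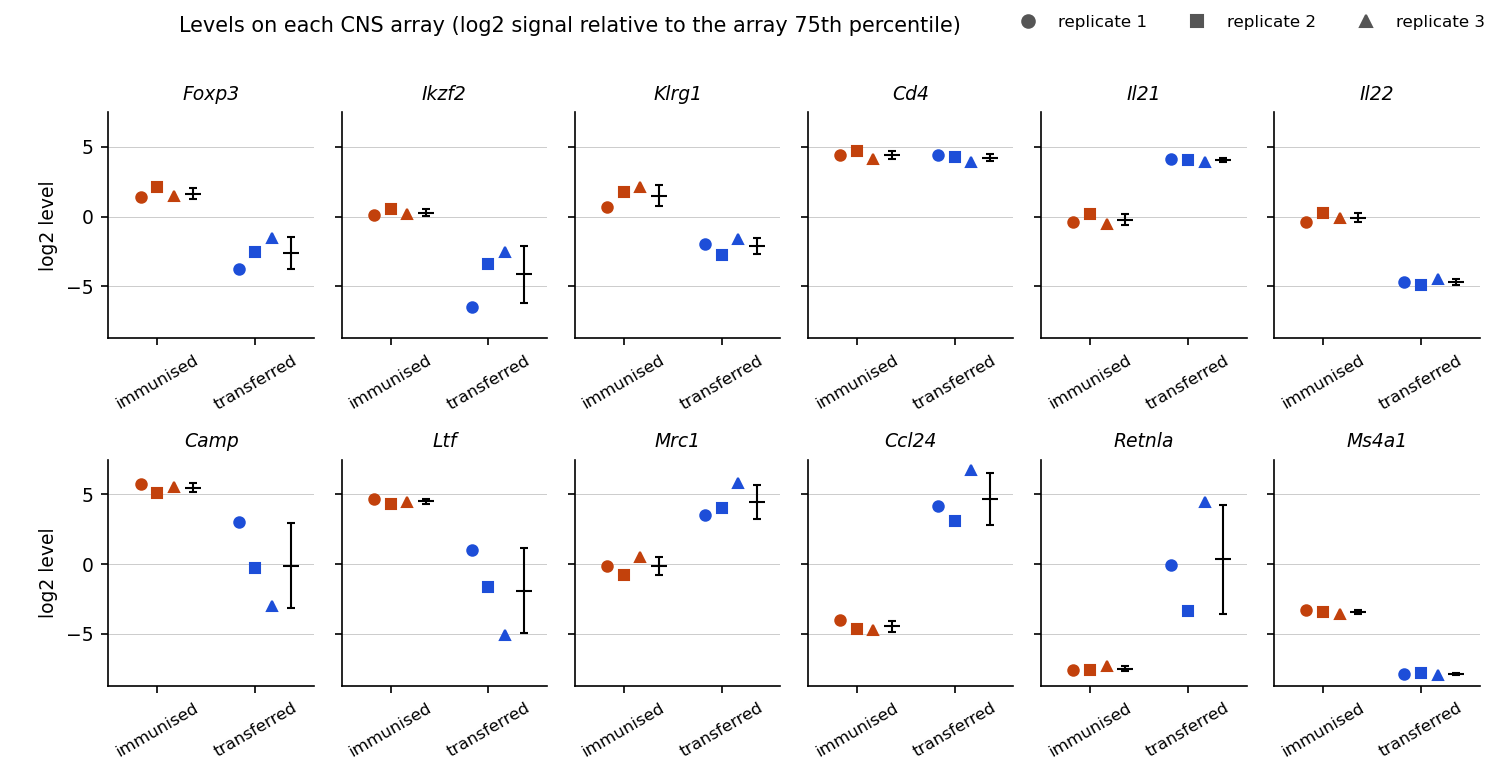
Levels of 12 genes on each of the 6 CNS arrays (log2 signal relative to the array's 75th percentile), immunised left and transferred right; symbols mark replicates, and bars give the mean ± SD of 3 arrays. Foxp3, Ikzf2, Klrg1, Il22, Camp, Ltf and Ms4a1 lie higher on immunised arrays, Il21, Mrc1, Ccl24 and Retnla lie higher on transferred arrays, and the Cd4 groups overlap.

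Neutrophil genes rose in immunised mice with large changes. Of 26 genes measured of 27 listed, 9 were called higher and 0 lower, with 19 higher and 0 lower at an unadjusted p under 0.05 and a median change of 2.77. Among all genes tested 1.82% were called higher. Camp, the cathelicidin of secondary granules (probe at chr9:109749911-109749970, mm9), had levels of 5.76, 5.12 and 5.53 on immunised arrays and 3.01, -0.31 and -3.03 on transferred arrays. Ltf, which encodes the iron-binding granule protein lactoferrin, had levels of 4.67, 4.31 and 4.48 on immunised arrays and 0.99, -1.63 and -5.10 on transferred arrays. For both genes the immunised arrays were nearly level, while the transferred arrays spread over about as many log2 units as separated the group means, with replicate 1 the highest. In 14 of the 26 genes the transferred levels ran from replicate 1 down through replicate 2 to replicate 3, against 24.0% of all genes.

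The fitted changes were 5.58 ± 1.10 for Camp (limma adjusted p = 0.0234) and 6.40 ± 1.11 for Ltf (limma adjusted p = 0.0138). Within slides Camp differed by 2.75, 5.43 and 8.57. Lcn2, a siderophore-binding antimicrobial protein, rose by 5.03, Ngp, a granule protein of the cathelicidin group, by 6.14, Cd177, a neutrophil surface protein, by 4.15 and S100a8, a calcium-binding protein of the neutrophil cytosol, by 4.04. Cxcr2, the receptor for neutrophil-attracting chemokines, rose by 2.74, the collagenase Mmp8 by 2.69 and Wfdc21 by 2.12. S100a9, the partner of S100a8, had levels of 7.91, 7.77 and 7.83 on immunised arrays and 6.63, 4.30 and 0.40 on transferred arrays and was not called (limma adjusted p = 0.0924). Ly6g averaged 1.49 more on immunised arrays and was not called either (limma adjusted p = 0.09996). Of the 26 genes, 4 had a negative change. Elane and Mpo, proteins of the primary granules made in the bone marrow by precursors, had changes of -0.04 and -0.72 (limma adjusted p = 0.931 and 0.483). Csf3r and Chil3 had changes of -0.20 and -1.46 (limma adjusted p = 0.732 and 0.549). In the fit of 6 arrays 4 of the 26 genes were called (Wfdc21, Cd177, Mmp8 and S100a11), where Camp and Ltf had limma adjusted p = 0.0762 and 0.0609. Leaving out 1 array gave 2 called genes without immunised replicate 1 or 2, 3 without immunised replicate 3, 4 without transferred replicate 2, 6 without transferred replicate 3 and 13 without transferred replicate 1.

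The promoters of the genes with the largest neutrophil changes are shown because these genes moved together, and their sequences are from RefSeq, build GRCm38.p6. The window covers the gene's start, with most of its bases before it. Capitals mark matches to TTGCNNAA on either strand, the core recognised by C/EBP factors, which drive granulocyte genes. Ltf lies at chr9:111019042-111019341 and Ngp at chr9:110419558-110419857, both on the plus strand.
Ltf: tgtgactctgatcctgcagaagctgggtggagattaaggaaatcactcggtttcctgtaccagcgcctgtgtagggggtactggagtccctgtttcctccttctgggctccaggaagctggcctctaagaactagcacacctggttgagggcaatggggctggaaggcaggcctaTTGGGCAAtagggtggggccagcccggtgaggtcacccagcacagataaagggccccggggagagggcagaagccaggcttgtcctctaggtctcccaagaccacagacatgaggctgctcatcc
Ngp: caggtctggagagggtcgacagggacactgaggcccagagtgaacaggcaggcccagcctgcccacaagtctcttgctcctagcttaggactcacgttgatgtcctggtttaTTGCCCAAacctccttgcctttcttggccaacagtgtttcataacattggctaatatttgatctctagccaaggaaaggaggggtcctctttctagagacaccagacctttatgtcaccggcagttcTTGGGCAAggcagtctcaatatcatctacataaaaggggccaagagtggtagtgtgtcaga
The match began at -75 in the Ltf window and at -138 and -11 in the Ngp window, counted from the start. Of the 9 called neutrophil genes 8 had a promoter in the table, and 4 of those held a match (Ltf, Ngp, Lcn2 and Mmp8), against 10.8% of 32851 mouse promoters of this length. The motif was chosen after the values were seen, and a match is a description of these letters.

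Genes of alternatively activated macrophages, the state that interleukin-4 and interleukin-13 induce, were lower in immunised mice. Of 19 genes measured of 24 listed, 4 were called lower and 0 higher (1 at an unadjusted p under 0.05, 0 in the fit of 6 arrays), where 1.37% of all genes were called lower. The median change was -1.46. Ccl24, which encodes the chemokine eotaxin-2 (probe at chr5:136046667-136046726, mm9), had levels of -4.02, -4.67 and -4.71 on immunised arrays and 4.20, 3.08 and 6.73 on transferred arrays. It had the largest fall of any called gene measured above background on all 6 arrays, with a change of -9.13 ± 1.22 (limma adjusted p = 0.00316) and within-slide changes of -8.21, -7.75 and -11.44. Mrc1, the mannose receptor CD206 (probe at chr2:14253273-14253332, mm9), had levels of -0.11, -0.80 and 0.52 on immunised arrays and 3.48, 4.02 and 5.82 on transferred arrays. Its change was -4.57 ± 0.68 (limma adjusted p = 0.0059), and both genes kept their calls without any 1 array.

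Retnla, a secreted protein of the same macrophage state also called RELM-alpha, was not well above background on any immunised array and had levels of -0.10, -3.33 and 4.46 on transferred arrays. It was at least 62.9-fold lower in immunised mice (limma adjusted p = 0.0181; 0.0652 in the fit of 6 arrays). That bound sets the transferred mean against the lowest signal well above background, or the probe's own signal where higher, on immunised arrays. Chil4, a chitinase-like protein, changed by -3.21 (limma adjusted p = 0.0473) and lost its call without any 1 array. Ccl8, a monocyte chemokine, had levels of -0.37, 0.80 and 3.16 on immunised arrays and 4.63, 5.11 and 6.65 on transferred arrays and was not called (limma adjusted p = 0.0567). Arg1, the arginase of this state, had a change of -1.44, also without a call (limma adjusted p = 0.340). Transferred replicate 3 was the highest of its group for 15 of the 19 genes, against 33.0% of all genes, and for 6 of the 7 Th2 genes. The Retnla promoter is shown as that of the 1 of 3 called genes with a promoter in the table that holds TTC and GAA separated by 4 bases, a palindrome, alike on both strands, to which STAT6 binds and which 6.95% of all promoters hold. It lies at chr16:48842359-48842658 on the plus strand (GRCm38.p6), the match in capitals begins at -145, and the motif was chosen after the values were seen.
Retnla: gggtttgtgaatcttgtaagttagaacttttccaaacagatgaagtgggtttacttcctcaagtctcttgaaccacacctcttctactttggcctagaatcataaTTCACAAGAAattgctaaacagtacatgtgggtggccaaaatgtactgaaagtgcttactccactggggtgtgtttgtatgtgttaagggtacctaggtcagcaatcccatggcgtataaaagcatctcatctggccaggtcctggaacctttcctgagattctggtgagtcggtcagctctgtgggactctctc

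Eosinophil-type ribonucleases had the same direction. Ear2 had levels of -0.14, -1.22 and -2.60 on immunised arrays and 2.10, 3.44 and 4.43 on transferred arrays, a change of -4.64 ± 0.78 (limma adjusted p = 0.0118). Rnase2a, Ear1 and Ear10 changed by -5.37, -4.44 and -4.65. None of the 4 overlapped between the groups, as for every called gene and for 33.7% of all genes. These genes are near-identical copies on chromosome 14, so their probes may read each other's transcripts. Of 11 mast cell, basophil and eosinophil genes, Ear1, Ear2 and Rnase2a were the called members, all lower, and 0 were higher (1 at an unadjusted p under 0.05, 0 in the fit of 6 arrays). The share of all genes called lower was 1.37%. Siglecf, an eosinophil and alveolar macrophage receptor, had levels of -1.66, -1.39 and -1.32 on immunised arrays and -1.35, -1.09 and -0.75 on transferred arrays, and Prg2, the major basic protein, was not well above background on any CNS array. Ccr3, the receptor through which eotaxins act, was at least 7.72-fold higher in immunised mice (limma adjusted p = 0.00109), with levels of -2.88, -2.02 and -3.13 on immunised arrays and no transferred array well above background. The Ccr3 mean was -1.89 in cultured Th17 cells, above the immunised mean of -2.68, and -5.09 in naive cells.

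Few macrophage, microglial and antigen presentation genes were called. Of 13 MHC class II presentation genes, H2-Ob, a chain of the peptide-loading regulator H2-O, rose by 1.55 (limma adjusted p = 0.0336; 0.0471 in the fit of 6 arrays) and 0 were lower (0 at an unadjusted p under 0.05 and in the fit of 6 arrays), with a median of 0.17. H2-Ob lost its call without any 1 array but transferred replicate 1. Among 24 macrophage and monocyte genes Plac8 was called higher and 0 lower (0 at an unadjusted p under 0.05 and in the fit of 6 arrays), with a median of 0.03. Plac8 lost its call without any 1 array. Among 12 microglial genes limma called 0, with 1 at an unadjusted p under 0.05 and 0 in the fit of 6 arrays. P2ry12, a purine receptor of resting microglia, averaged -0.45 ± 0.25 on immunised and -0.63 ± 0.21 on transferred arrays (SD, n = 3 each). Tmem119, a microglial membrane protein, averaged 1.33 in both groups. Apoe, abundant in lipid-laden macrophages, had levels of 7.83, 7.22 and 8.2 on immunised arrays and 8.0, 8.39 and 8.03 on transferred arrays, and C1qa, a complement component, also overlapped. Of 25 complement and lipid genes, 22 had a negative change, as 54.4% of all genes did. Limma called 0 of the 25 (6 lower at an unadjusted p under 0.05, 0 in the fit of 6 arrays), and their median was -0.67. The median was -0.17, -1.41 and -0.20 within the 3 slides, lowest on the slide of immunised replicate 2, whose macrophage signal was also lowest.

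**Figure D3:**
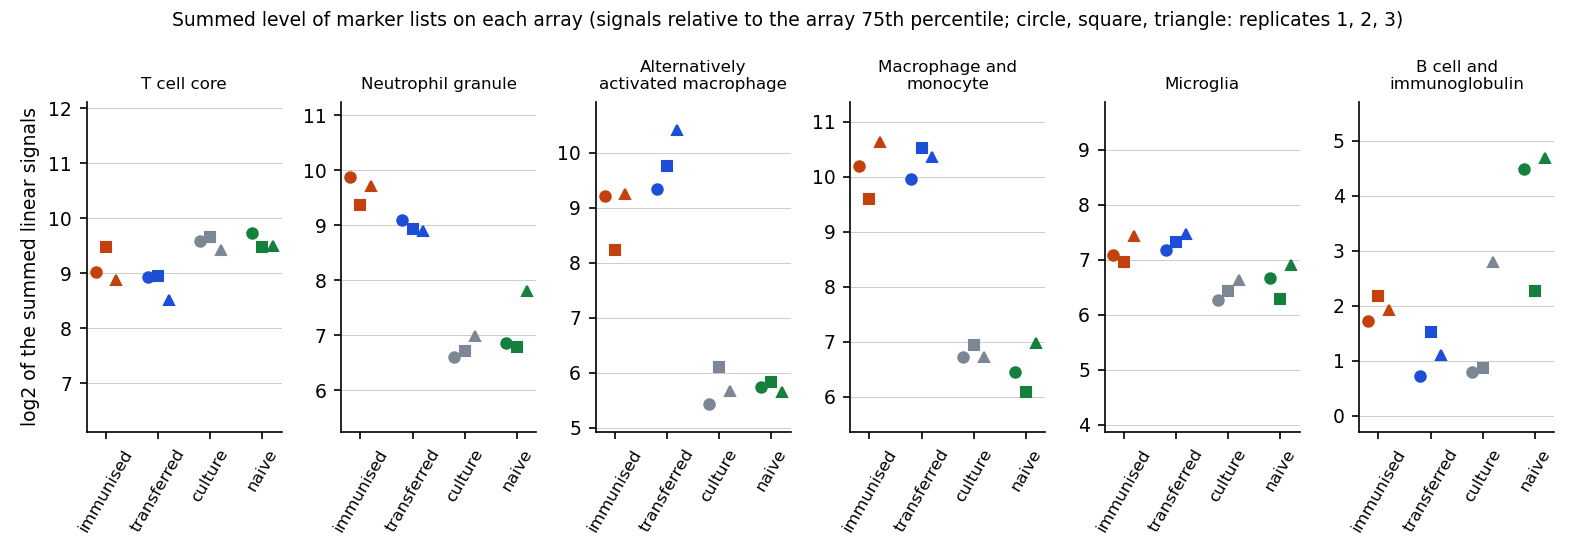
Log2 of the summed signal of 6 marker lists on each of the 12 arrays, by group; symbols mark replicates. The neutrophil sum is 9.37 to 9.88 on immunised and 8.89 to 9.10 on transferred arrays, and the alternatively activated macrophage sum is 8.23 to 9.26 on immunised and 9.34 to 10.42 on transferred arrays.

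A few B cell genes were higher in immunised mice. The summed signal of 13 B cell and immunoglobulin genes, on the log2 scale, was 1.73 to 2.17 on immunised and 0.72 to 1.52 on transferred arrays, and 7 of the 13 were well above background on all 6. Ms4a1, which encodes the B cell antigen CD20, had levels of -3.26, -3.46 and -3.59 on immunised arrays and was not well above background on any transferred array. It was at least 4.89-fold higher in immunised mice (limma adjusted p = 0.000975). Jchain, which joins secreted immunoglobulin M and A, was at least 19.4-fold higher (limma adjusted p = 0.0366). Its levels of -1.24, 0.77 and -3.87 on immunised arrays ranged widely. The immunoglobulin heavy chain probe Igh-VJ558 varied alike, with -1.25, 0.32 and -3.89. Ms4a1 and Jchain were among the 3 called members of 13 measured of 19 listed, with 0 lower (0 at an unadjusted p under 0.05 and in the fit of 6 arrays). Jchain lost its call without any 1 array but immunised replicate 3, and none of the 3 was called after normexp background correction.

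Markers of other lymphocytes were few. Cd8a, a chain of the CD8 coreceptor, had levels of -2.80, -2.87 and -3.72 on immunised arrays and -7.62, -4.47 and -7.10 on transferred arrays, of which 1 was well above background. It rose by 3.26 ± 0.65 (limma adjusted p = 0.0256; 0.0759 in the fit of 6 arrays), the 1 call among 13 CD8 and NK cell genes. Of all genes tested, 1.82% were called higher. Of the 13, 5 had a negative change, and the list median was 0.75. Cd8a lost its call after normexp background correction, and without immunised replicate 1 or 2 or transferred replicate 1 or 3. Cd163l1, a scavenger receptor that marks interleukin-17-producing gamma delta T cells, had levels of 1.07, 1.99 and 0.70 on immunised arrays and -1.81, -1.11 and -2.24 on transferred arrays, a rise of 2.97 ± 0.59 (limma adjusted p = 0.0256). It lost its call without immunised replicate 1 or 2 or transferred replicate 1 or 3, and its naive mean of 2.72 exceeded the immunised mean of 1.25. The other 3 of 4 measured gamma delta and innate-like genes, of 10 listed, had changes of -1.30 to 0.05 without a call, and the list median was 0.00. Of 9 endothelial and stromal genes Cdh5 and Acta2 were called higher and 0 lower (1 at an unadjusted p under 0.05, 0 in the fit of 6 arrays), with a median of 0.31. Acta2 lost its call after normexp background correction and in the fit of 6 arrays (limma adjusted p = 0.0544). It also lost it without any 1 array but immunised replicate 2. Cdh5, the cadherin of endothelial cells, was at least 2.21-fold higher in immunised mice (limma adjusted p = 0.00109), but after normexp background correction its change was 0.30 (limma adjusted p = 0.381). The endothelial receptor genes Kdr and Flt1 had changes of -0.42 and -1.05 without a call. The adult haemoglobin genes averaged 3.69 (Hba-a1) and 3.74 (Hbb-bt) more on immunised arrays without a call (limma adjusted p = 0.168 and 0.222).

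The list-by-list changes set these groups beside programmes that did not pass the test. All 26 cell cycle genes had a negative change, between -0.99 and -0.09 with a median of -0.51. A negative change was found for 54.4% of all genes tested. Limma called 0 of the 26, 3 were lower at an unadjusted p under 0.05, and the fit of 6 arrays called 0. Mki67, the proliferation antigen Ki-67, had levels of 3.20, 3.34 and 3.51 on immunised arrays and 3.95, 4.31 and 4.09 on transferred arrays (limma adjusted p = 0.312). The median of 29 interferon-stimulated genes was 0.47, limma called 0 (4 higher at an unadjusted p under 0.05), and the fit of 6 arrays called 3. Glycolysis and cholesterol synthesis genes had medians of 0.16 and 0.17, and limma called 0 in both lists, with 1 higher in each and 2 glycolysis genes lower at an unadjusted p under 0.05. The fit of 6 arrays called 1 higher in each and 1 glycolysis gene lower. All 80 ribosomal protein genes had a negative change with a median of -0.45, of which limma called 0 and 29 were lower at an unadjusted p under 0.05, while the fit of 6 arrays called 3. That median was -0.07 after quantile normalization and in the series matrix values, so its size depends on the scaling.

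**Figure D4:**
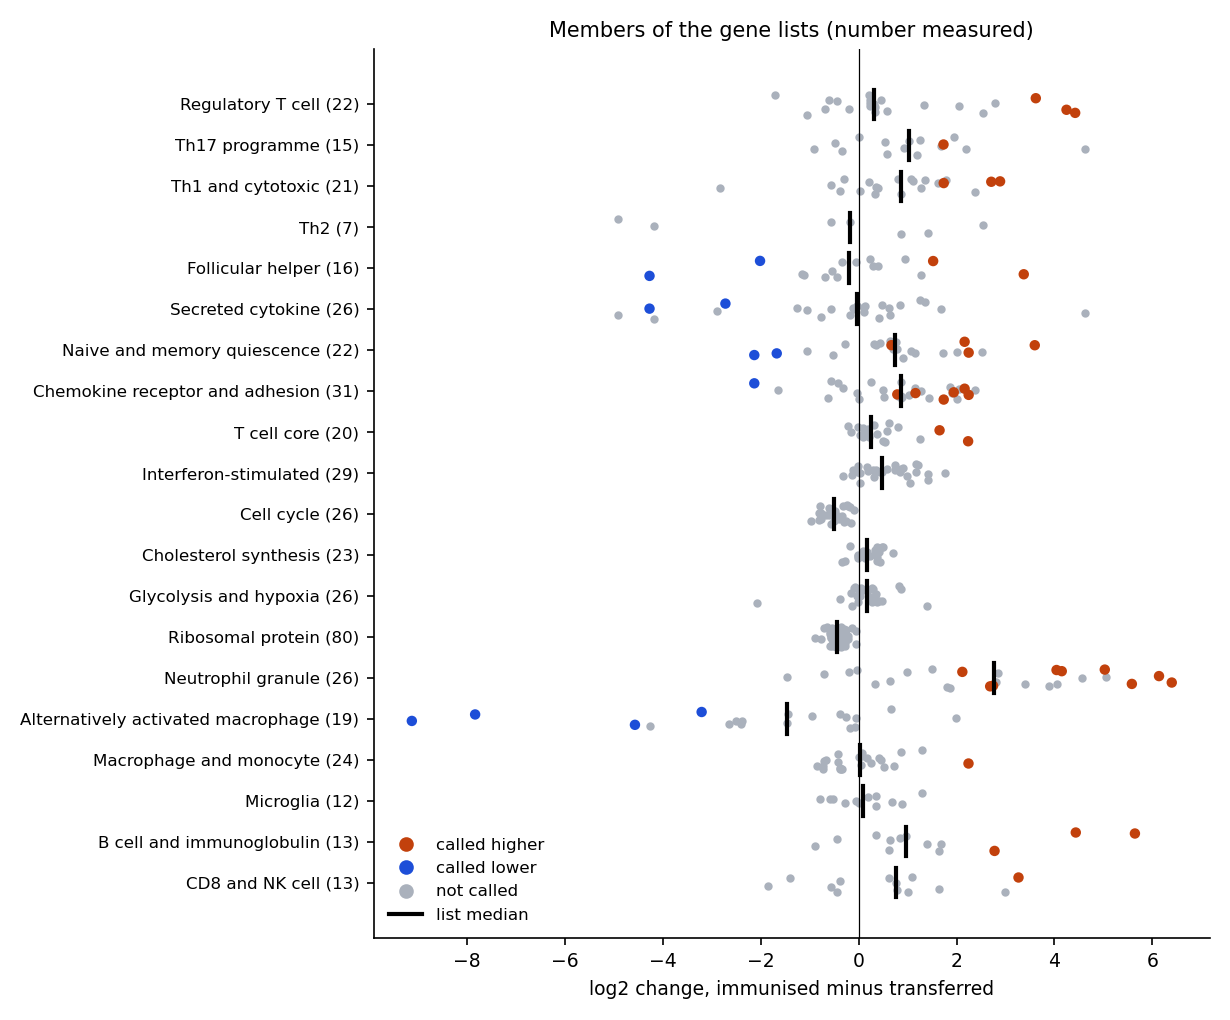
Each point is the log2 change (immunised minus transferred) of 1 gene in 20 gene lists, with the number of genes measured in brackets; coloured points were called and black bars mark list medians. The neutrophil median lies at 2.77 and the alternatively activated macrophage median at -1.46, while cell cycle and ribosomal protein genes all lie just left of 0.

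Genes outside the lists also changed. Ly6d, a surface protein of early B-lineage cells, had levels of -0.71, 0.37 and 0.10 on immunised arrays and -5.39, -5.06 and -5.32 on transferred arrays, a rise of 5.17 ± 0.34 (limma adjusted p = 3.03e-05). Its mean was 0.39 in naive cells and -3.69 in cultured cells. Hdc, the enzyme that makes histamine, rose by 3.93 (limma adjusted p = 0.0179) and Ifitm6, an interferon-induced protein of myeloid cells, by 4.16 (limma adjusted p = 0.0439), and both shared the descending transferred arrays of the neutrophil genes. From background, the membrane protease Tmprss13 was at least 17.9-fold higher, Tctex1d1 at least 14.5-fold, the adhesion molecule Ceacam10 at least 12.2-fold, the dynein Dnah7b at least 11.9-fold, the secreted prokineticin Prok2 at least 10.69-fold and Ankrd22 at least 7.44-fold.

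The largest falls outside the lists included genes that cultured Th17 cells already expressed. Slc7a3, a transporter of arginine and lysine, had levels of -4.79, -3.97 and -4.31 on immunised arrays and -0.05, 0.37 and 0.19 on transferred arrays, a change of -4.53 ± 0.35 (limma adjusted p = 8.77e-05). Lama5, a laminin chain, changed by -4.13 (limma adjusted p = 0.00109) and Bace2, a protease, by -3.57 (limma adjusted p = 0.00523), and their means in cultured cells were 3.66 and 1.75 against -3.65 and -5.60 in naive cells. Stra6, the receptor for the retinol carrier, had levels of -5.42, -5.24 and -4.86 on immunised arrays and 0.19, 0.16 and 1.67 on transferred arrays, a change of -5.84 (limma adjusted p = 0.0127). Atp6v0d2, a proton pump subunit abundant in osteoclasts and macrophages, changed by -4.75. To background, Cth, the enzyme that makes cysteine from cystathionine, was at least 12.1-fold lower, the gap junction protein Gja1 at least 8.06-fold, Tmem26 at least 5.72-fold, Spin4 at least 3.77-fold, the transcription factor Foxq1 at least 3.49-fold and Gm6093 at least 3.36-fold. The cultured mean of Cth was -2.66, near its transferred mean of -2.03.

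The cultured and naive arrays do not enter the difference itself, but they enter the spread and the choice of genes tested. They were used here to describe the called genes, and the shares are not independent of the calls. Of the 255 genes lower in immunised mice, 30.6% were at least 2-fold higher in cultured Th17 cells than in naive cells, against 15.9% of all genes tested, and 10.2% were at least 2-fold lower, against 15.4%. Of the 339 genes higher in immunised mice, 38.6% were at least 2-fold lower in cultured than in naive cells, against 15.4% of all genes, and 19.8% were at least 2-fold higher, against 15.9%. Across the 18630 genes the 2 differences had a Pearson r of -0.17, a weak relation across genes that share arrays and RNA amplification.

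Sex-linked transcripts separated the groups as well, and the sex of the mice is not given in the labels. The 4 Y-linked genes Eif2s3y, Ddx3y, Uty and Kdm5d were not well above background on any immunised array. Eif2s3y, a translation initiation factor gene, had levels of 2.50, 1.87 and 1.38 on transferred arrays, and was at least 187-fold lower in immunised mice (limma adjusted p = 0.0522). Ddx3y, an RNA helicase gene, was at least 51.9-fold lower in immunised mice (limma adjusted p = 0.0644). Xist, the RNA that silences an X chromosome in female cells, had levels of -0.62, -0.52 and -0.85 on immunised arrays and -7.81, -1.68 and -1.51 on transferred arrays. Transferred replicates 2 and 3 carried both Xist and Y-linked transcripts. The naive arrays differed among themselves for these genes, which widens the 12-array spread, and in the fit of 6 arrays the 4 Y-linked genes were called. Sex and group cannot be told apart.

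**Figure D5:**
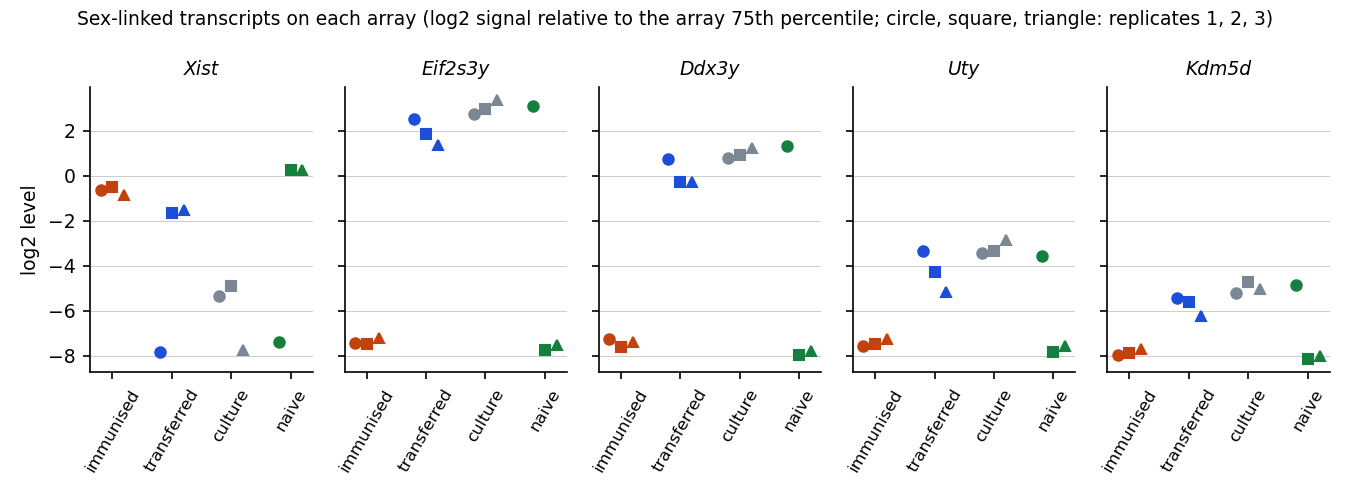
Levels of Xist and 4 Y-linked genes on each of the 12 arrays (log2 signal relative to the array's 75th percentile); symbols mark replicates. Y-linked genes lie at background on the 3 immunised arrays and above it for Eif2s3y, Ddx3y and Uty on the 3 transferred arrays, while Xist is high on the 3 immunised arrays and on 2 transferred arrays.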

How the data were processed

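RNA of 12 samples was hybridised to 1-colour Agilent arrays. The intensity values are the processed signals as deposited, background-subtracted by Agilent Feature Extraction 10.7.3.1 under protocol GE1_107_Sep09, per the file headers, which also give probe positions on mm9. The series matrix holds the authors' deposited values of the same arrays on a scale that is not given in the sources used here, and it served as an alternative. Control and outlier spots were left out, spots of a probe were averaged, and log2 signals were taken relative to each array's 75th percentile of non-control probes. The probe with the highest mean stood for its gene, which was tested if every array of some group, among the 4, put that probe well above background. Of 39429 probes, 27234 were named by accession, 3576 by symbol and 565 by synonym through RefSeq, and 8054 kept the file's name. Leaving out 24 probes for outlier spots left 39405. limma 3.58.1 in R 4.3.3 fitted 4 group means to 12 arrays with lmFit and eBayes, and Benjamini-Hochberg adjustment ran over 18630 genes. The test was tried on simulated data first. Where a gene was not well above background on any array of a group, its fold is a lower bound against the lowest signal well above background. Genes were named by size of change among called genes (the 12 largest rises and falls, the 8 largest bounds each way, up to 6 called genes per list) and by a fixed set. Further list members were named after their values were seen. The members and the 39 lists were chosen with earlier results of these data known. Replicates were separate experiments per the series text, and the number of arrays limits the precision. Some genes of the lists are not reported here.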

Additional observations from a re-analysis of the deposited data

How the results depend on the processing

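The count of 594 genes was 380 with no filter on dim probes and 382 with only probes well above background on all 6 CNS arrays. It was 5937 with array weights, 180 at an adjusted p under 0.01, and 192 to 636 when 1 array was left out. Genes called at least 2-fold numbered 281 with the filter on all 6 arrays, 1830 with array weights, 178 at p under 0.01 and 191 to 574 with 1 array left out. Neutrophil genes called higher numbered 4 in the fit of 6 CNS arrays, 20 with array weights, 2 at p under 0.01 and 2 to 13 with 1 array left out. Alternatively activated macrophage genes called lower numbered 2 with the filter on all 6 arrays, 2 in the fit of 6 CNS arrays, 9 with array weights, 2 at p under 0.01 and 2 to 4 with 1 array left out. Called B cell genes numbered 0 after normexp, 1 with no filter, 0 with the filter on all 6 arrays, which removes genes dim in 1 group, 6 with array weights, 1 at p under 0.01 and 1 to 2 with 1 array left out. Regulatory T cell genes called higher numbered 5 with array weights and 4 with the replicate number as a block. They numbered 2 with no filter, with the filter on all 6 arrays and at p under 0.01. The count was also 2 without any 1 immunised array or without transferred replicate 2. Other causes were not tested. Quantile normalization, median scaling, the percentile over detected probes, normexp, the series matrix, both other probe choices and a trended robust prior called 472 to 718 genes. The fit with a replicate block called 548 genes. Same-numbered arrays of the groups correlated at 0.02, -0.20 and 0.20 in their deviations. They share a slide as well as a number, and the numbers were not taken to pair the samples. Of the genes named by size of change or the fixed set, Ngp, Gzmb, Jchain, Itga6 and Acta2 lost their calls under the block. The limma adjusted p was 0.0534 for Ngp, 0.0700 for Gzmb, 0.0600 for Jchain and 0.0699 for Itga6. Foxp3, Il21, Ccl24 and Mrc1 kept their calls and direction in every alternative at the threshold of 0.05. Genes near background have only bounds, which limits the B cell and Y-linked values.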
